A study of Homo sapiens with 7 samples.

Results

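The DNAJ genes encode the HSP40 co-chaperones, and they were followed here in HEK-293 cells after prolonged acidification or inhibition of SR protein kinases. Their members were found by gene symbol, as every row of the deposited table whose symbol begins with DNAJA, DNAJB or DNAJC followed by a digit. This gave 45 of the 19978 genes in the table, with 4 DNAJA, 12 DNAJB and 29 DNAJC genes, all annotated as protein-coding. The rule itself uses no measured value, but it was set with earlier results of these data known.

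The HEK-293 line comes from human embryonic kidney, was transformed with adenovirus DNA and is a model of dividing cultured cells rather than of kidney tissue. All 7 samples were poly(A)-selected RNA from cells kept for 48 h in DMEM with the same volume of the solvent DMSO. The control (2 samples) was at pH 7.4, the acidosis group (3 samples) was in medium brought to pH 6.6 with HCl, and the SRPIN340 group (2 samples) was at pH 7.4 with 10 µM of this inhibitor of SR protein kinases. By the stated treatments, the control and SRPIN340 groups thus differ in the inhibitor, and control and acidosis in the HCl-adjusted pH of the medium.

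A co-chaperone of this family carries a J domain, which binds an HSP70 protein and stimulates its ATPase, so that HSP70 closes on an unfolded client. Nucleotide exchange factors then open HSP70 and release the client. DNAJA proteins have a J domain, a glycine- and phenylalanine-rich stretch and a zinc-finger region, DNAJB proteins lack the zinc finger, and DNAJC proteins share little beyond the J domain and are mostly specialised for one place or task in the cell. Some family members, DNAJB1 above all, are textbook targets of the heat shock factor HSF1, and others, such as DNAJB9, are targets of the unfolded protein response of the endoplasmic reticulum (ER).

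HSF1 binds the heat shock element, an array of alternating GAA and TTC triplets set apart by any 2 bases. The stretch upstream of the canonical DNAJB1 transcript is shown because this gene had the highest level among the DNAJB genes in acidosis. It lies on the minus strand at chr19:14518408-14518517 (GRCh38.p14, RefSeq), from 120 to 11 bases before the start site, and 2 pairs of triplets are in capitals.
DNAJB1: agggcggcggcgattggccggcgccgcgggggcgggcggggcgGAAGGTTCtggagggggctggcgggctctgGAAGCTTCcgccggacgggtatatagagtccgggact
Shorter stretches are shown for 3 other members that hold such triplets, in capitals. Of these, DNAJB4 and DNAJB6 rose in acidosis and DNAJA1 did not pass the test. The stretches lie at chr1:78004834-78004855, chr7:157336866-157336892 and chr9:33025269-33025295, all on the plus strand. Their triplets begin at offsets of -98 (DNAJB4), -131 (DNAJB6) and 3 bases (DNAJA1) from a start site. Another DNAJA1 pair, at -198, is not shown.
DNAJB4: tttgctgTTCTAGAAagtacag
DNAJB6: gagccgaGAACCTTCGCGAAggtgggg
DNAJA1: ccgggcgGAACTTTCCAGAAcgctcgg
Promoter windows of 300 bases, from 250 before to 50 after a start site, were found for 41 of the 45 members, and some members have more than 1 window. A pair of triplets (GAANNTTC or TTCNNGAA, either strand) was found in windows of 8 of these 41 members, namely DNAJA1, DNAJA4, DNAJB1, DNAJB4, DNAJB6, DNAJB7, DNAJC6 and DNAJC15. This was 17.0% of the 53 member windows, beside 13.5% of all 35116 promoter windows. Of these 8 members, DNAJB1, DNAJB4 and DNAJB6 rose in acidosis, DNAJC15 fell, and DNAJA1 and DNAJC6 did not pass the test. DNAJA4 and DNAJB7 were not tested. No pair was found in the windows of DNAJB5, which rose most, or of DNAJB9. Arrays of 3 triplets (GAANNTTCNNGAA or TTCNNGAANNTTC, which contain the pairs) were in the windows of DNAJA1 and DNAJB6, and in 0.49% of all windows. The ER stress element (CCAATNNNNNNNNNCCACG, either strand) was in none of the member windows and in 0.077% of all windows. A match describes letters in a window, not a bound site.

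Library totals lay between 13615816 and 24110460 estimated counts and were lowest in acidosis (13615816 to 21370143), so low genes are measured less precisely there. Values are in CPM, the edgeR unit of counts relative to library size, here scaled by the trimmed mean of M-values (TMM), and suit the comparison of samples within a gene. The TMM factors of the acidosis samples were 0.782 to 0.8, against 1.17 to 1.21 in the other samples, which means that changes in acidosis are relative to the typical gene. Without these factors the log2 fold changes in acidosis had a median of -0.63 over all genes, not -0.052. These counts hold no measure of RNA per cell, so fewer cells of a kind and less RNA per cell cannot be told apart. Among HEK-293 markers, VIM (836 to 2745 CPM), NEFL (92.5 to 169 CPM) and LHX1 (13.7 to 18.5 CPM) were present in all samples. VIM was at 842 to 892 CPM in control and 2675 to 2745 CPM in acidosis, while PAX2 was at 6.49 to 7.06 and 1.19 to 2.48 CPM. The 7 markers of leukocytes, fibroblasts, endothelium and hepatocytes stayed at or below 3.18 CPM, with CDH5 at most at 2 counts. CD74 (0.983 to 1.04 CPM in control) was at 2.14 to 3.18 CPM in acidosis, and PTPRC at 0.602 to 0.826 CPM against at most 0.281 CPM in control. The part of these shifts in the results was not tested.

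Of the 45 members, 41 passed the filter on low counts and were tested. DNAJB8 had no counts in any sample, which allows at most 0.275 CPM in the shallowest library. DNAJB7 reached 1 count, DNAJA4 2 counts and DNAJB13 5 counts at most. DNAJA4, described as a heat-inducible cytosolic co-chaperone, was thus practically not detected in any of the 3 conditions. The span of 7 members overlaps another coding gene on their own strand and that of 11 more only on the other strand, and 8 members have annotated pseudogenes named after them. How strand was used in the counting is not given in the sources used here, so the values of such genes carry this uncertainty.

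Acidosis shifted the balance among the classes towards DNAJB. Calls required both an absolute log2 fold change over 1 and a p under 0.05 in edgeR's quasi-likelihood test after Benjamini-Hochberg adjustment. Of the 41 tested members, 5 were called higher (12.2%, beside 14.4% of all tested genes) and 7 lower (17.1%, beside 19.1%). The family as a whole was therefore called about as often as any gene. By class, 4 of 9 DNAJB genes were called higher and 0 lower, 1 of 29 DNAJC genes higher and 7 lower, and none of the 3 DNAJA genes in either direction. By adjusted p alone, 17 members rose (41.5%, beside 32.5% of all tested genes) and 14 fell (34.1%, beside 34.2%), and 10 did not pass. In this count 8 of the 9 DNAJB genes rose and only DNAJB12 fell. The median log2 fold change was 0.57 in DNAJA, 1.00 in DNAJB and -0.09 in DNAJC, beside -0.052 over all tested genes. With libraries scaled by total count only, these medians were -0.01, 0.42 and -0.66, so the order of the classes was kept and the DNAJA median went just below 0. Of the 17 genes that rose, DNAJA3, DNAJC21 and DNAJC25 had a log2 fold change below 0 under that scaling (-0.01, -0.05 and -0.11).

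**Figure D1:**
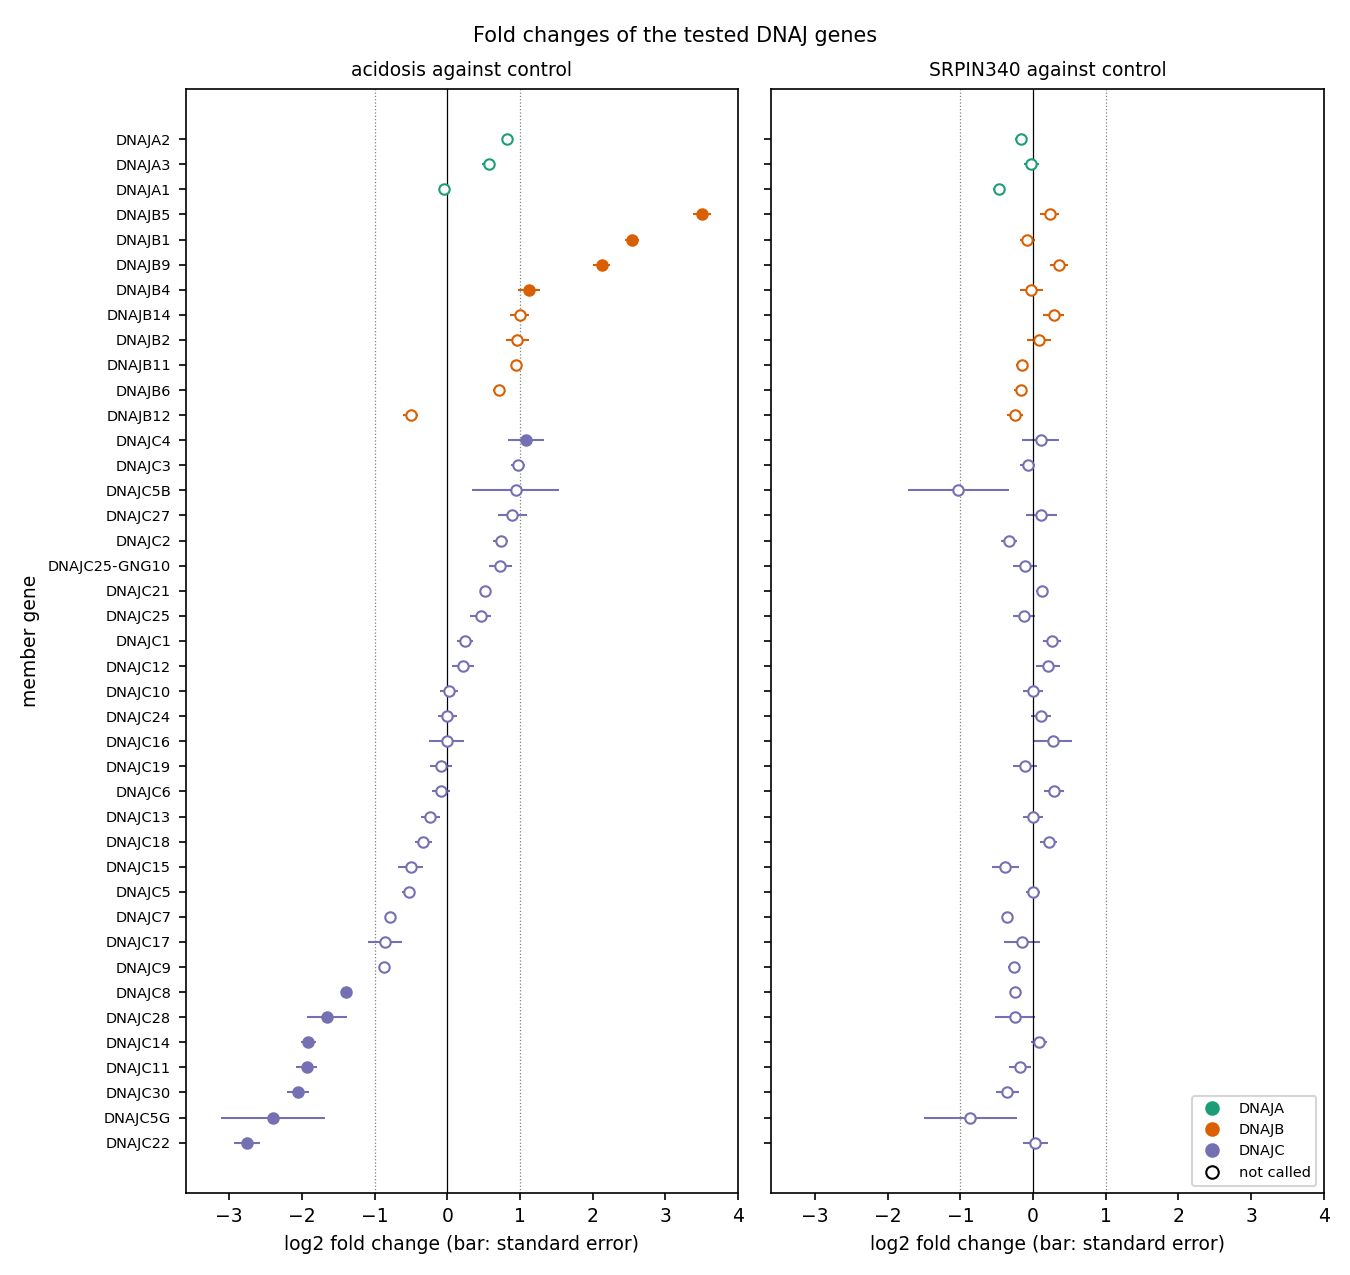
The 41 tested DNAJ genes (vertical axis, by class) with their log2 fold change against control in acidosis (left) and with SRPIN340 (right), bars showing the standard error and filled points the called genes. In acidosis the DNAJB genes other than DNAJB12 lie to the right of 0, up to 3.51 for DNAJB5, and 7 DNAJC genes lie beyond -1, while with SRPIN340 no point is filled.

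Shares within the family do not depend on the scaling between libraries. Of all DNAJ counts, DNAJB genes held 18.1% and 18.8% in control, 18.7% and 19.6% with SRPIN340, and 42.8%, 40.8% and 42.4% in acidosis. DNAJC genes held 61.7% and 60.2% in control, 63.5% and 62.5% with SRPIN340, and 37.6%, 40.2% and 38.4% in acidosis. Control and SRPIN340 samples lay side by side and each acidosis sample stood apart from them for both classes. DNAJB1 alone took 4.80% and 4.75% in control and 21.0%, 19.8% and 22.8% in acidosis. With DNAJB1 left out, the other DNAJB genes still held 14.0% and 14.8% of the remaining counts in control against 27.6%, 26.2% and 25.4% in acidosis. DNAJA genes held 20.1% and 20.9% in control, 17.8% and 17.9% with SRPIN340, and 19.6%, 19.0% and 19.2% in acidosis. A sum over genes is weighted by the most abundant ones and by transcript length, and no test was made on it.

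**Figure D2:**
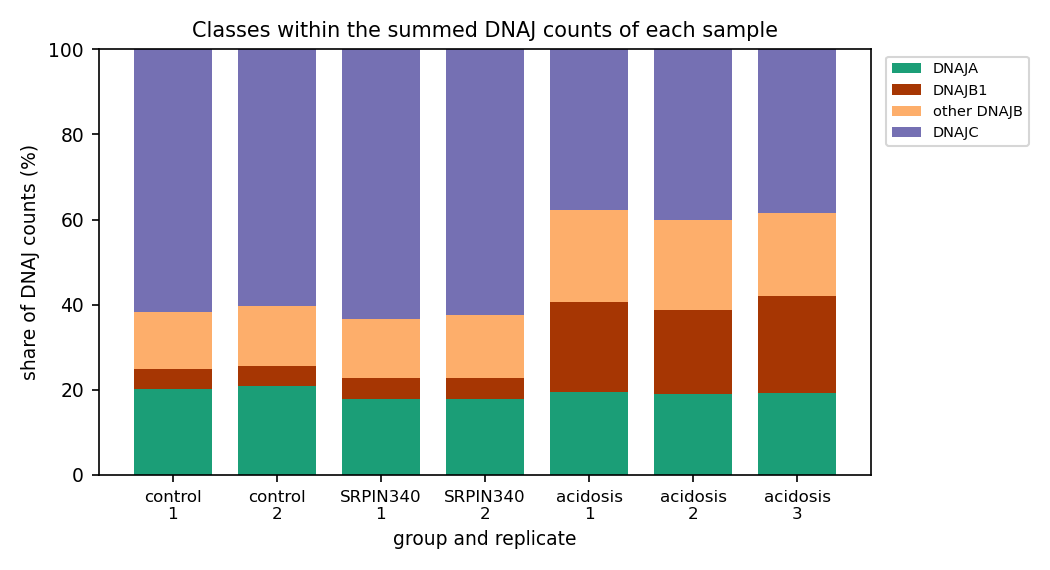
Share of the summed DNAJ counts (percent, vertical axis) held by DNAJA, DNAJB1, the other DNAJB and the DNAJC genes in each of the 7 samples. The DNAJC share is 60.2% or more in the control and SRPIN340 samples and 40.2% or less in the acidosis samples.

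Most general folding helpers of the cytosol and nucleus rose in acidosis, led by DNAJB5 and DNAJB1. Of the 8 tested genes of this group, 3 were called higher (37.5%, beside 14.4% of all tested genes) and 0 lower (beside 19.1%), 6 rose and 1 fell by adjusted p alone (75% and 12.5%, beside 32.5% and 34.2%), with a median log2 fold change of 0.89. DNAJB5 (ENSG00000137094.16, chromosome 9 of GRCh38, 34989641 to 34998900) was at 7.64 and 6.92 CPM in control, 8.77 and 8.28 CPM with SRPIN340, and 88.8, 83.9 and 76.2 CPM in acidosis. Every acidosis sample was far above every other sample. This was the largest rise in the family, at 3.51 on the log2 scale (standard error 0.124, edgeR adjusted p = 2.28e-08).
DNAJB1 (ENSG00000132002.9, chromosome 19, 14514769 to 14560391), the main heat-inducible partner of cytosolic HSP70, was at 117 and 111 CPM in control, 106 and 109 CPM with SRPIN340, and 644, 594 and 744 CPM in acidosis. The groups did not overlap, and the log2 fold change was 2.54 (standard error 0.0994, edgeR adjusted p = 3.89e-08). DNAJB4 (ENSG00000162616.9, chromosome 1, 77979175 to 78017964), a close relative of DNAJB1, was lower in level and went from 12.0 and 14.0 CPM to 30.4, 25.3 and 29.5 CPM. Its log2 fold change of 1.13 (edgeR adjusted p = 9.80e-05) fell below the fold limit, to 0.55, with scaling by total count only. DNAJB4 overlaps the coding gene GIPC2 on its own strand.

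DNAJB2, which carries ubiquitin-interacting motifs, and DNAJB6, known for holding back polyglutamine aggregation, also rose but stayed under the fold limit. DNAJB2 went from 16.5 and 18.2 CPM to 39.6, 28.6 and 33.1 CPM (log2 fold change 0.97, edgeR adjusted p = 0.000375). DNAJB6 went from 113 and 109 CPM to 188, 179 and 180 CPM (log2 fold change 0.72, edgeR adjusted p = 3.87e-05), and did not pass with scaling by total count only (0.14, edgeR adjusted p = 0.142). The cytosolic DNAJA genes that were tested, DNAJA1 and DNAJA2, encode general partners of HSPA8. DNAJA2 rose from 117 and 116 CPM to 198, 204 and 216 CPM (log2 fold change 0.82, edgeR adjusted p = 4.18e-06). DNAJA1 was at 311 and 307 CPM in control and 300, 281 and 320 CPM in acidosis, so the groups overlapped (log2 fold change -0.04, standard error 0.0698, edgeR adjusted p = 0.623). With scaling by total count only, DNAJA1 was at -0.62 and passed (edgeR adjusted p = 1.77e-05). DNAJC7, which binds both HSP70 and HSP90 through its tetratricopeptide repeats, was the one member of this group that fell. It went from 228 and 215 CPM to 130, 134 and 120 CPM (log2 fold change -0.79, edgeR adjusted p = 7.33e-06), with the SRPIN340 samples between, at 171 and 176 CPM.

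**Figure D3:**
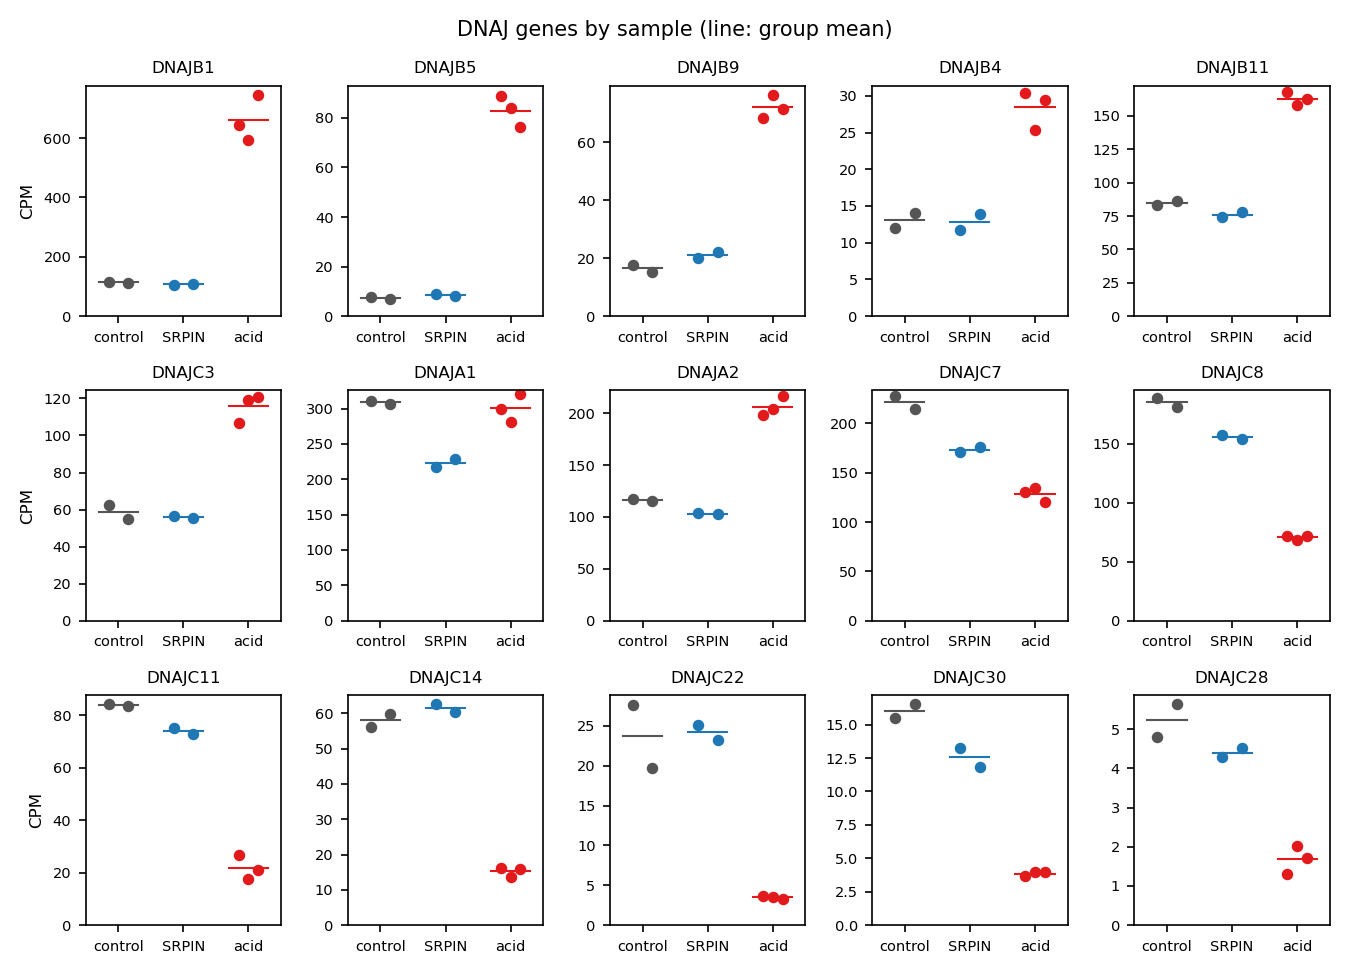
Level in CPM (vertical axis, from 0) of 15 DNAJ genes in every sample, with a line at the mean of each group of 2 control, 2 SRPIN340 (marked SRPIN) and 3 acidosis (marked acid) samples. DNAJB1, DNAJB5 and DNAJB9 are higher in all acidosis samples, DNAJC8, DNAJC11, DNAJC14, DNAJC22, DNAJC28 and DNAJC30 are lower in all of them, and DNAJA1 is lowest with SRPIN340.

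The ER members held both rises and falls, at shares near those of all genes. Of the 10 tested genes, 1 was called higher and 1 lower (10% each, beside 14.4% and 19.1% of all tested genes), 4 rose and 3 fell by adjusted p alone (40% and 30%, beside 32.5% and 34.2%), and the median log2 fold change was 0.13. The lumenal partners of the ER chaperone HSPA5 account for 3 of the 4 rises. DNAJB9 (ENSG00000128590.5, chromosome 7, 108569867 to 108574850), which binds HSPA5 and the stress sensor IRE1, went from 17.7 and 15.4 CPM in control to 68.3, 76.4 and 71.6 CPM. The SRPIN340 samples were at 20.1 and 22.1 CPM, just above control and far below acidosis. Acidosis raised DNAJB9 by 2.12 on the log2 scale (standard error 0.115, edgeR adjusted p = 2.58e-07).
DNAJB11 encodes a soluble co-chaperone of HSPA5 and overlaps another coding gene model on its own strand. It rose from 83.4 and 85.9 CPM to 168, 158 and 163 CPM (log2 fold change 0.94, edgeR adjusted p = 2.20e-06). DNAJC3, which is also known as an inhibitor of the kinases PKR and PERK, rose from 62.7 and 54.8 CPM to 107, 119 and 121 CPM (log2 fold change 0.98, edgeR adjusted p = 1.13e-05). Both fell just short of the fold limit. DNAJC10, an ER disulfide reductase, did not follow them, with 189 and 159 CPM in control and 152, 179 and 201 CPM in acidosis (log2 fold change 0.02, standard error 0.126, edgeR adjusted p = 0.877). With scaling by total count only, DNAJC10 passed as lower (-0.55, edgeR adjusted p = 0.00266).

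The related ER membrane proteins DNAJB12 and DNAJB14, which act in ER-associated degradation, went opposite ways. DNAJB14 rose from 22.0 and 24.1 CPM to 43.6, 45.4 and 49.1 CPM (log2 fold change 1.00 when rounded, at the fold limit and not called, edgeR adjusted p = 0.0001). DNAJB12 fell from 52.8 and 53.7 CPM to 41.2, 35.2 and 36 CPM (log2 fold change -0.50, edgeR adjusted p = 0.00129). DNAJC14 (ENSG00000135392.19, chromosome 12, 55820960 to 55830824), another ER membrane protein, fell furthest in this group, from 56.2 and 59.9 CPM to 16.3, 13.8 and 16.0 CPM, while the SRPIN340 samples were at 62.8 and 60.4 CPM. Its log2 fold change was -1.91 (standard error 0.105, edgeR adjusted p = 2.79e-07). DNAJC14 overlaps a second coding gene model on its own strand and ORMDL2 on the other. The remaining ER genes were DNAJC1, DNAJC16 and DNAJC18, with log2 fold changes from -0.33 to 0.24, of which DNAJC18 passed (edgeR adjusted p = 0.0276). With scaling by total count only, DNAJC1 and DNAJC16 also passed as lower (-0.33 and -0.58, edgeR adjusted p = 0.0221 and 0.0494). Without acidosis replicate 1, however, DNAJC1 passed as higher (0.34, edgeR adjusted p = 0.0156). DNAJC18 did not pass without control replicate 1, acidosis replicate 1 or acidosis replicate 2 (edgeR adjusted p = 0.213, 0.0575 and 0.0633).

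Most mitochondrial members fell. Of the 6 tested genes, 3 were called lower (50%, beside 19.1% of all tested genes) and 0 higher (beside 14.4%), 4 fell and 1 rose by adjusted p alone (66.7% and 16.7%, beside 34.2% and 32.5%), and the median log2 fold change was -1.08. DNAJC11 (ENSG00000007923.17, chromosome 1, 6634168 to 6701924), which is linked to the complex that shapes the cristae, was at 84.4 and 83.6 CPM in control, 75.2 and 72.8 CPM with SRPIN340, and 26.7, 17.6 and 20.9 CPM in acidosis. DNAJC30 (ENSG00000176410.8, chromosome 7, 73680918 to 73683453), a factor for respiratory chain function, was at 15.5 and 16.6 CPM in control, 13.3 and 11.8 CPM with SRPIN340, and 3.68, 3.95 and 3.96 CPM in acidosis. For both genes all acidosis samples lay below all other samples. The log2 fold changes were -1.94 (standard error 0.142, edgeR adjusted p = 1.74e-06) and -2.06 (standard error 0.156, edgeR adjusted p = 2.13e-06). DNAJC28, placed here with less certainty, was lower in level and went from 4.79 and 5.65 CPM to 1.31, 2.02 and 1.72 CPM (log2 fold change -1.65, edgeR adjusted p = 0.000436).
DNAJC15 and DNAJC19 are the J proteins of the protein import motor of the inner membrane. DNAJC15 fell from 14.3 and 14.4 CPM to 10.6, 8.72 and 10.9 CPM (log2 fold change -0.50, edgeR adjusted p = 0.025). It did not pass without control replicate 1, control replicate 2 or acidosis replicate 2 (edgeR adjusted p = 0.0865, 0.0842 and 0.0587). DNAJC19 was at 18.2 and 16.8 CPM in control and 15.7, 15 and 18.8 CPM in acidosis, with overlapping groups (log2 fold change -0.09, edgeR adjusted p = 0.641). It passed as lower with scaling by total count only (-0.66, edgeR adjusted p = 0.00272). DNAJA3, the matrix partner of HSPA9 for folding, rose from 60.3 and 65.1 CPM to 102, 86.4 and 90.5 CPM (log2 fold change 0.57, edgeR adjusted p = 0.000479), which did not pass with scaling by total count only (-0.01, edgeR adjusted p = 0.949).

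**Figure D4:**
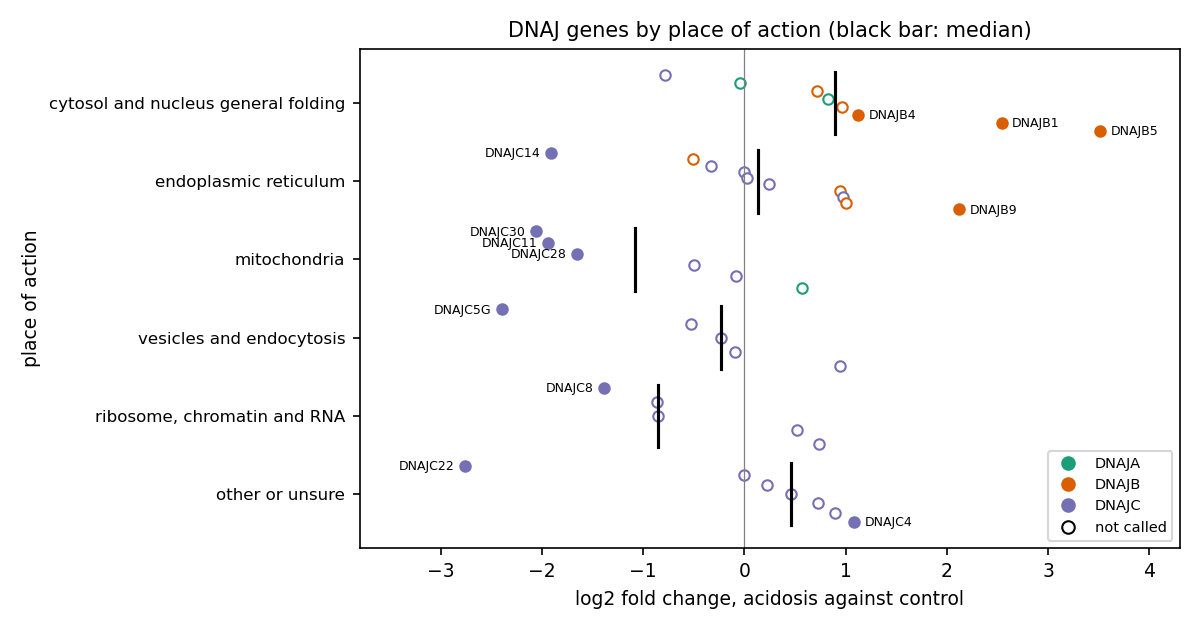
Log2 fold change of the 41 tested DNAJ genes in acidosis against control (horizontal axis), grouped by where the proteins act, with the class by colour, called genes filled and named, and a black bar at the median of each group. The median is 0.89 in the cytosol and nucleus, 0.13 in the ER and -1.08 in mitochondria.

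Among the 5 members tied to ribosomes, chromatin and RNA, 2 rose and 3 fell by adjusted p alone (40% and 60%, beside 32.5% and 34.2% of all tested genes). DNAJC8, a protein found with the spliceosome, was at 189 and 181 CPM in control, 158 and 154 CPM with SRPIN340, and 71.6, 68.8 and 71.7 CPM in acidosis. It was called lower, with a log2 fold change of -1.39 (standard error 0.0665, edgeR adjusted p = 1.23e-07). DNAJC9, a co-chaperone for histones H3 and H4, fell from 95.1 and 91.7 CPM to 49.5, 53.7 and 50.6 CPM (log2 fold change -0.87, edgeR adjusted p = 7.51e-06). DNAJC17, linked to splicing, fell as well (-0.86, edgeR adjusted p = 0.00849), but did not pass without control replicate 2 (edgeR adjusted p = 0.0569). The ribosome-bound DNAJC2 rose from 64.9 and 56.5 CPM to 95.1, 111 and 96.7 CPM (log2 fold change 0.73, edgeR adjusted p = 0.000133). DNAJC21, a factor for the large ribosomal subunit, rose from 119 and 111 CPM to 161, 170 and 165 CPM (log2 fold change 0.52, edgeR adjusted p = 0.000114). With scaling by total count only, neither DNAJC2 (0.16, edgeR adjusted p = 0.188) nor DNAJC21 (-0.05, edgeR adjusted p = 0.536) passed.

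Of the 5 members of vesicles and endocytosis, 1 was called lower (20%, near the 19.1% of all tested genes). This was DNAJC5G, a gene at the edge of detection with 22 and 26 counts in control, 18 and 7 with SRPIN340, and 1, 3 and 2 in acidosis. Its pooled ratio of acidosis to control was 0.179 (95% interval 0.0625 to 0.418, exact, counting error only), and the call was lost without control replicate 2 (edgeR adjusted p = 0.0632). Its relative DNAJC5B had 9 and 15 counts in control, 7 and 4 with SRPIN340, and 21, 6 and 7 in acidosis, and did not pass (edgeR adjusted p = 0.19). DNAJC5, the cysteine string protein of secretory vesicles, fell from 51.5 and 58.3 CPM to 37.9, 37.4 and 38.8 CPM (log2 fold change -0.53, edgeR adjusted p = 0.000598). The clathrin-uncoating factor DNAJC6 and the endosomal DNAJC13 did not pass (log2 fold changes -0.09 and -0.23), although DNAJC13 did without acidosis replicate 3 (-0.34, edgeR adjusted p = 0.0295). With scaling by total count only, both passed as lower (-0.66 and -0.81, edgeR adjusted p = 0.0009 and 0.000188).

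Of the other members, DNAJC22 had the largest fall in the whole family. DNAJC22 (ENSG00000178401.16, chromosome 12, 49346888 to 49357546) was at 27.7 and 19.7 CPM in control, 25.2 and 23.3 CPM with SRPIN340, and 3.62, 3.58 and 3.27 CPM in acidosis. The control samples themselves were apart, but both were well above acidosis, and the log2 fold change was -2.76 (standard error 0.183, edgeR adjusted p = 8.99e-07). DNAJC4 was the one DNAJC gene called higher, from 6.74 and 7.79 CPM to 10.8, 16.3 and 19.4 CPM (log2 fold change 1.08, edgeR adjusted p = 0.00298). It overlaps NUDT22 on the same strand, its acidosis samples varied widely, and the fold was 0.98 without control replicate 1 and 0.89 without acidosis replicate 3. With scaling by total count only, DNAJC4 did not pass (0.51, edgeR adjusted p = 0.0848). DNAJC27, a Rab-like GTPase with a J domain, rose from 10.4 and 6.81 CPM to 16.6, 16.8 and 14.4 CPM (log2 fold change 0.89, edgeR adjusted p = 0.00267). Its fold was 1.22 without control replicate 1 and 0.60 without control replicate 2, and it did not pass with scaling by total count only (0.32, edgeR adjusted p = 0.167). DNAJC25 and its readthrough with GNG10, which share sequence, had log2 fold changes of 0.46 and 0.73 (edgeR adjusted p = 0.0177 and 0.00228). The fold of DNAJC25 was 0.37 without control replicate 2. Neither of these genes passed with scaling by total count only (-0.11 and 0.15, edgeR adjusted p = 0.495 and 0.398). DNAJC12 and DNAJC24 did not pass, although DNAJC24 passed as lower with that scaling (-0.58, edgeR adjusted p = 0.00211).

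The partners of the co-chaperones were read from a list of 32 genes, of which 31 were tested. It holds HSP70 and HSP110 genes, exchange factors, other co-chaperones and J-domain proteins under other symbols. The list was chosen with earlier results of these data known. In acidosis, 12 were called higher (38.7%, beside 14.4% of all tested genes) and 1 lower (3.23%, beside 19.1%). By adjusted p alone, 19 rose (61.3%, beside 32.5% of all tested genes) and 7 fell (22.6%, beside 34.2%). The largest rises were in the stress-inducible HSP70 genes HSPA1A, HSPA6 and HSPA1B, with log2 fold changes of 5.54, 5.53 and 4.70. HSPA6 was low, at 0.396 and 0.351 CPM in control (at most 11 counts) and 18.5, 13.5 and 20.4 CPM in acidosis. HSPA1A and HSPA1B are near-identical, so reads can be split between them. The only fall past the fold limit was in HSPA12A, at -1.96. HSPA5, the partner in the ER, and HSPA9, the partner in mitochondria, were singled out after their values were seen. HSPA5 was at 463 and 438 CPM in control and rose to 5935, 6145 and 6096 CPM in acidosis (log2 fold change 3.75, edgeR adjusted p = 3.05e-10). HSPA9 fell from 553 and 457 CPM to 332, 358 and 346 CPM (log2 fold change -0.55, edgeR adjusted p = 0.000245). Of the exchange factors, 3 of 9 were called higher (33.3%, beside 14.4% of all tested genes).

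With SRPIN340, edgeR called 0 members higher and 0 lower, beside 0.128% and 0.195% of all tested genes, and DESeq2 called 0 as well. At an unadjusted p under 0.05 there were 9 members in edgeR (22.0%, beside 17.6% of all tested genes). The log2 fold changes lay between -1.03 and 0.35. Only the low-count genes DNAJC5B and DNAJC5G exceeded 0.5 in size, and neither passed (edgeR adjusted p = 0.499 and 0.542). DNAJA1 was the only member that passed the adjusted p alone in edgeR (2.44% of the members, beside 0.767% of all tested genes higher and 1.53% lower). It was at 217 and 229 CPM with SRPIN340, below both control samples (311 and 307 CPM), with a log2 fold change of -0.47 (standard error 0.0764, edgeR adjusted p = 0.021). It did not pass with any of the 4 samples of this comparison left out (edgeR adjusted p = 0.0974 to 0.21). DESeq2 passed 3 members by adjusted p alone, but its share over all tested genes was not counted, so this number has no background beside it. DNAJC7, at 171 and 176 CPM against 228 and 215 CPM in control, was just short of passing in edgeR (log2 fold change -0.35, adjusted p = 0.053). DNAJB1 did not pass (log2 fold change -0.08, standard error 0.0999, edgeR adjusted p = 0.746). Of the 31 tested genes of the HSP70 machine list, 0 were called with SRPIN340, and 4 were lower by adjusted p alone (12.9%, beside 1.53% of all tested genes). These were HSPA5, HSPA8, the ER chaperone HYOU1 and the HSP70-HSP90 adaptor STIP1, with log2 fold changes of -0.35, -0.42, -0.43 and -0.32 (edgeR adjusted p = 0.0227, 0.0354, 0.0181 and 0.039), and they were singled out after their values were seen. None of the 4 passed in edgeR once any control or SRPIN340 sample was left out, and all 4 passed in DESeq2.

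Acidosis and SRPIN340 were also tested against each other, since both comparisons above share the control samples. Of the 41 members, 8 were called higher in acidosis (19.5%, beside 14.9% of all tested genes) and 6 lower (14.6%, beside 19.7%). DNAJB5, DNAJB1, DNAJB9 and DNAJB4 were again higher, with log2 fold changes of 3.28, 2.62, 1.77 and 1.15. DNAJB11, DNAJC3 and DNAJC2 passed the fold limit here (1.10, 1.05 and 1.07), and so did the low-count DNAJC5B (1.97, edgeR adjusted p = 0.0227), which did not pass with DESeq2 (adjusted p = 0.0551). The lower genes were DNAJC22, DNAJC14, DNAJC11, DNAJC30, DNAJC28 and DNAJC8, from -2.79 to -1.14. DNAJA1, whose control and acidosis samples overlapped, was higher in acidosis than with SRPIN340 (log2 fold change 0.43, edgeR adjusted p = 0.000433), but lower with scaling by total count only (-0.19, edgeR adjusted p = 0.026). DNAJC4 was not called in this comparison (0.98), nor was DNAJC5G (-1.54, edgeR adjusted p = 0.0964, and 0.0261 with scaling by total count only).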

How the data were processed

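Poly(A)-selected RNA of 7 HEK-293 samples was sequenced, and 1 protocol field spells the inhibitor's number differently from the other sources. Library totals were 13615816 to 24110460. Per the submitters' processing notes and the study's methods, the authors trimmed reads with Trimmomatic 0.39 and Trim Galore 0.6.6, quantified transcripts with Salmon 1.5.1 against Gencode GRCh38.p13 and used tximport to reach gene level. What the authors deposited is thus an estimated count for each gene, fractional and without scaling between samples. Which tximport option was set is not given in the sources used here. The methods call the samples biological repeats, each sequenced in replicates, and the table has 1 column per sample.

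Symbols came from GENCODE release 44 (19977 of 19978 IDs matched). Counts were rounded and tested with edgeR 4.0.16 (R 4.3.3; TMM, filterByExpr, quasi-likelihood, all 7 samples in 1 fit, 14863 genes), with Benjamini-Hochberg adjustment over all genes. Standard errors came from the test statistic. The tests were checked on simulated data. Alternatives were DESeq2 1.42.0 (independent filtering off), RLE factors, total count only, no filter, no fold limit, only the groups compared, a replicate block and each sample left out; these were read for the HSP70 machine genes with SRPIN340 after seeing the data. Replicate pairs differed by more than sampling noise (chi-square per degree of freedom 6.85 to 12.2). Members and lists were chosen with earlier results of these data known. Places of action came from general knowledge. The text names the members called in any comparison, the 3 most abundant of each class, those past the adjusted p with SRPIN340, those at 3 counts or fewer, further members by size of change up to 30, and the called genes of the HSP70 machine list with the largest changes. Others were added to complete their group. Figures were drawn with matplotlib 3.10.9.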

Additional observations from a re-analysis of the deposited data

How the results depend on the processing

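In acidosis against control, 5 members were called higher and 7 lower. With scaling by total count only, these numbers were 3 and 13 (HSP70 machine list 7 and 4), and in acidosis against SRPIN340 they were 3 and 12. The class medians were then -0.01 (DNAJA), 0.42 (DNAJB) and -0.66 (DNAJC). DNAJB1, DNAJB5 and DNAJB9 were the members still called higher. DESeq2 and RLE factors each called 7 members higher and 7 lower. Over all 14863 tested genes, DESeq2 called 2192 higher and 2640 lower, and RLE factors 2243 and 2766. Both settings added DNAJB14 (1.02) and DNAJC3 (1.00 when rounded) to the members called higher. Without the fold limit, 17 members were higher and 14 lower in acidosis against control (HSP70 machine list 19 and 7), 19 and 13 in acidosis against SRPIN340, and 0 and 1 with SRPIN340. Leaving out each sample in turn moved the DNAJC median between -0.27 and -0.05, the lowest without control replicate 2, and the lower calls of the HSP70 machine list between 1 and 2, the second without acidosis replicate 3. No alternative reversed the direction of a called member.

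With the replicate number as a block, 4 members were called higher (DNAJC4 was lost) and 7 lower, and the HSP70 machine list had 2 lower calls. The block changed no other call of a member. By adjusted p alone, DNAJA1 with SRPIN340 no longer passed (0.0716), nor did the 4 HSP70 machine genes lower with SRPIN340, and DNAJC13 in acidosis did (0.039). Against SRPIN340, DNAJB12 and DNAJC17 no longer passed, and DNAJC13 and DNAJC16 did. Same-numbered samples did not deviate together (correlations from -0.115 to 0.063 over genes). In a group of 2 samples, however, the deviations from the group mean mirror each other. These correlations therefore cannot show whether same-numbered samples shared a batch. Acidosis libraries are the shallowest, which limits DNAJC5B and DNAJC5G most.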
